A study of Mus musculus with 6 samples.

Results

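The genes described here are 36 genes of the lysosome, the acid compartment in which cells break down proteins, lipids and sugars. They were taken by gene symbol from tables that listed 36706 features, and comprise 8 cysteine cathepsins, 5 other proteases and reductases, 6 glycosidases and lipid hydrolases, 3 soluble cofactors, 7 membrane proteins, 2 transcription factors and 5 subunits of the vacuolar proton pump. All 36 were listed and all 36 passed the filter on low counts. The cells were macrophages of genotype WT that had been grown from mouse bone marrow (BMDMs) with the growth factor M-CSF. Of 6 libraries, 3 came from macrophages exposed to the T and NK cell cytokine IFN-γ (interferon-gamma) and 3 from macrophages left untreated, with a label of 3 h in both groups. The dose of IFN-γ and the strain, sex and age of the mice were not given in the sources used here. The series set out to find the mechanism behind the induction of ACOD1, an itaconate-making enzyme, and the comparison below asks how lysosomal genes stood in the same libraries.

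In a macrophage the lysosome receives what the cell engulfs. The vacuolar ATPase (V-ATPase) pumps protons into it, and cathepsins and other acid hydrolases then work at the low pH. Cysteine cathepsins also trim antigens and the invariant chain of MHC class II molecules. Many lysosomal genes carry a motif around the sequence CACGTG in their promoters, which the transcription factors TFEB and TFE3 bind.

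The tables held 32628170 to 34233607 counts per library with IFN-γ and 28133342 to 31173432 counts untreated. The labels do not state whether replicates were separate mice or separate wells, so p-values cover only the variation among these 6 libraries, which may be technical. Irf1, an interferon-response factor used as a check of treatment, stood at 941 ± 14.2 CPM with IFN-γ and 33.1 ± 0.605 CPM untreated (mean ± SD, n = 3 each), where CPM is a gene's count relative to the library total after TMM scaling. Macrophage markers were abundant, with Lyz2 at 15246 CPM with IFN-γ and 15487 CPM untreated. The macrophage markers Adgre1, Csf1r and Fcgr1 were called higher. Summed markers of T and NK cells, B cells and mast cells reached at most 0.267 CPM in any library, and Cd3e and Fcer1a had no count in any. The 6 neutrophil markers summed to between 117 and 131 CPM with IFN-γ and between 69.5 and 92.1 CPM untreated, nearly all of it S100a8 and S100a9, which were called higher. The 5 stromal markers reached at most 1.23 CPM, and the 6 erythroid and megakaryocyte markers summed to between 728 and 801 CPM with IFN-γ and between 765 and 1100 CPM untreated, nearly all of it Pf4. The 4 dendritic cell markers summed to between 4.01 and 4.84 CPM with IFN-γ and between 1.3 and 1.73 CPM untreated. The part of these differences in the results below was not tested. In these bulk samples, fewer cells of a type and less RNA per cell cannot be told apart.

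The untreated libraries differed among themselves. By counts over all genes, untreated replicate 1 lay farthest from the others, with a chi-square per degree of freedom of 81.12 against replicate 2 and 52.72 against replicate 3, where replicates 2 and 3 gave 27.5. By exon length, untreated replicate 2 stood apart. Its log2 CPM changed with exon length by -0.093 per doubling of length against its group's mean, while the other untreated libraries had slopes of 0.067 and 0.026. Without untreated replicate 1, 6 of the 36 genes were called higher and 2 lower, where 18.5% of all genes were higher and 14.6% lower. Counts with and without untreated replicate 2 are given below.

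Between the IFN-γ and untreated libraries, 9 of the lysosomal genes were called different (25%), against 36.4% of all genes tested. Of the 9, 7 differed by less than 1.3-fold. Of the 36, 8 were called higher (Ctsc, Lamp2, Asah1, Ctsh, Gla, Psap, Atp6v1b2 and Tfe3) and Ctsl alone was called lower, at an adjusted p under 0.05 in edgeR's quasi-likelihood test. Over all 12968 genes tested, 19.6% were called higher and 16.8% lower, against 22.2% and 2.78% of the lysosomal genes. Groups did not overlap for 20 of the 36 genes (55.6%), against 50.1% of all genes tested. At 2 times or more, Ctsc was the only lysosomal gene called, where 6.17% of all genes were called higher and 1.94% lower. The median log2 fold change of the 36 genes was 0.139 against -0.014 for all genes tested. Upper quartile and total count scaling moved the median of all genes by -0.147 and -0.17. They moved that of the 36 genes to -0.009 and -0.029, so the small rises depend on the scaling. The gap between the 2 medians was 0.153, 0.152 and 0.155 under TMM, upper quartile and total counts. Scaling shifts every gene alike, so this gap could hardly change and does not show whether the rises hold. Upper quartile scaling left 2 of the 36 higher and 5 lower, where 13.9% of all genes were higher and 31.6% lower. Total counts left 2 higher and 7 lower, where 12.8% of all genes were higher and 34.9% lower. Without untreated replicate 2, 20 genes were higher and 2 lower, where 24% and 21.1% of all genes were.

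**Figure D1:**
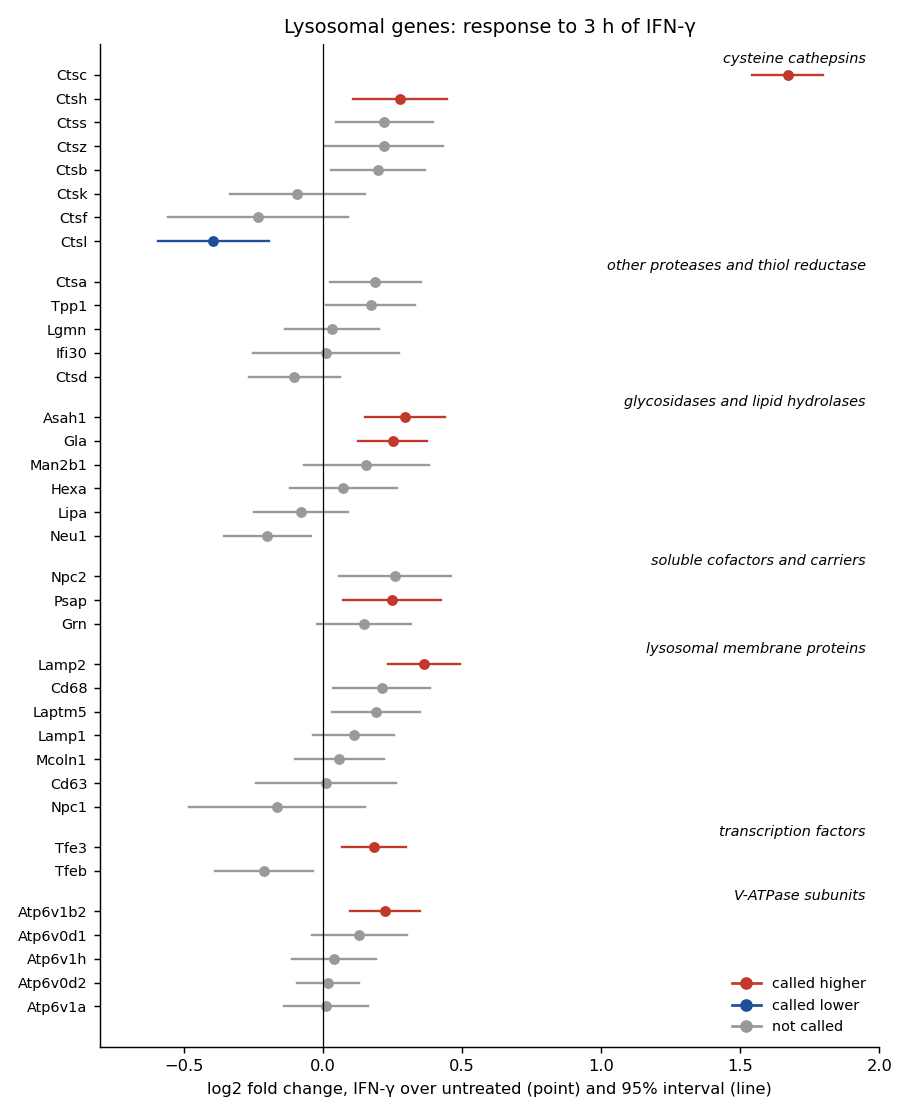
Log2 fold change of each of the 36 lysosomal genes, IFN-γ over untreated, with its 95% interval, grouped by role and ordered by size, 3 libraries in each group. Ctsc stands alone at 1.67, Ctsl at -0.39 is the only gene called lower, and the other points lie between -0.23 and 0.36. Under total count scaling 12 of the points right of 0 move to its left.

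Cathepsin C was the gene with the largest change. Ctsc encodes dipeptidyl peptidase I, an aminopeptidase that removes dipeptides and activates the granule serine proteases of immune cells. It had 850.6, 869.3 and 874.5 CPM with IFN-γ, against 271.8, 267.2 and 276.0 CPM untreated. The libraries of each group lay close together and far from those of the other group. This amounted to 3.18-fold, or 1.67 ± 0.06 (SE) on the log2 scale (edgeR, adjusted p = 1.56e-07). It stayed between 1.5 and 1.67 and kept its call under all 17 alternative settings. The tables place Ctsc on chromosome 7, plus strand, from 87927220 to 87965069 of a build they do not name, with 11154 exonic bases.

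Cathepsin L moved the other way. Ctsl, an endopeptidase that works in lysosomes and on antigens, had 2891, 3173 and 3231 CPM with IFN-γ, against 3813, 4516 and 3873 CPM untreated. All 3 IFN-γ libraries lay below all 3 untreated ones. The log2 fold change was -0.39 ± 0.09 (SE, edgeR adjusted p = 0.00864), and Ctsl fell under all 17 alternatives, by 0.31 to 0.56 on the log2 scale. Of the 50-base stretches in its transcripts, 6.5% also occurred in another gene.

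The promoters of the 3 called genes with the largest changes are shown, to set their motifs beside those of the other lysosomal genes. Each is the RefSeq sequence from 250 bases before to 50 bases after the start of transcription, in assembly GRCm38.p6. They lie at chr7:88277835-88278134 on the plus strand for Ctsc, at chrX:38456411-38456710 on the minus strand for Lamp2, and at chr13:64370471-64370770 on the minus strand for Ctsl. Capitals mark every match, on either strand, to CACGTG, TCACGTGA (which contains CACGTG) or a form of the interferon-stimulated response element (ISRE), in which GAAA occurs again after a gap of 2 bases.
Ctsc: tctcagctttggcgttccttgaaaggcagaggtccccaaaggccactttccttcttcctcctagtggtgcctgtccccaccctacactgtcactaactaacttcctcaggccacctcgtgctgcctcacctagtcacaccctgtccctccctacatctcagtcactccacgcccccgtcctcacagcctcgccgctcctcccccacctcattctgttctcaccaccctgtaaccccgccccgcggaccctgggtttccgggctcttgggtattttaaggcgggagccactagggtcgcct
Lamp2: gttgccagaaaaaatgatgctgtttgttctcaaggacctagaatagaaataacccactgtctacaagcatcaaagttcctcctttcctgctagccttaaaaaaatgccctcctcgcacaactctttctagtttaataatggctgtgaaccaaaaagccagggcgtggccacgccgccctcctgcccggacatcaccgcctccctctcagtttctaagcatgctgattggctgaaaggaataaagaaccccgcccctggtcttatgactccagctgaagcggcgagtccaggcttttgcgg
Ctsl: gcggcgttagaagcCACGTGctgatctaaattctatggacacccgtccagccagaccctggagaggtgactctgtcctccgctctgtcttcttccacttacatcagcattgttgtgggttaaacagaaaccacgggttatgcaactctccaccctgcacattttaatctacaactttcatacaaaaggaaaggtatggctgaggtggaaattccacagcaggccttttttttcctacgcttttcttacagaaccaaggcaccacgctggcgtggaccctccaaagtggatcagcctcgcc
The Ctsl window held a single CACGTG starting 236 bases before the start site, and the Ctsc and Lamp2 windows held no match to these motifs. A promoter was found for 29 of the 36 genes. CACGTG occurred in a promoter of 11 of these 29 (37.9%), against 8.1% of 27025 genes, and TCACGTGA in 7 (24.1%), against 1.1%. CACGTG occurred in 9 of the 23 matched genes that did not pass the test, in Gla alone among 5 matched genes called higher, and in Ctsl. The ISRE form occurred in Ctss and Lamp1, or 6.9%, against 4% of all genes. A match says only that the letters are there.

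Ctsh, an aminopeptidase, was the other cysteine cathepsin called higher. It had 218.7, 242.0 and 242.1 CPM with IFN-γ, against 180.6, 208.7 and 190.6 CPM untreated. The log2 fold change was 0.28 ± 0.07 (SE, edgeR adjusted p = 0.0186). This call was lost under 7 of 17 alternatives, among them upper quartile and total count scaling, and each fit that omitted a library other than untreated replicate 2 and IFN-γ replicate 1.

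Cathepsin S, which cuts the invariant chain in antigen-presenting cells, narrowly missed the threshold. Ctss had 4015, 4327 and 4427 CPM with IFN-γ, against 3458, 3937 and 3556 CPM untreated, and the groups did not overlap. Its log2 fold change was 0.22 with a 95% interval from 0.05 to 0.40 (edgeR, adjusted p = 0.0529). DESeq2, limma-voom, removal of the length trend and the omission of untreated replicate 2 or IFN-γ replicate 1 each put it past the threshold.

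The remaining cysteine cathepsins did not pass the test. Ctsb, the most abundant of them, averaged 15236 CPM with IFN-γ and 13276 CPM untreated, with an interval of the log2 fold change from 0.03 to 0.37. Ctsz, a carboxypeptidase, averaged 1163 ± 24.2 CPM with IFN-γ and 998.6 ± 126 CPM untreated (SD, n = 3 each), and untreated replicate 2, at 1143 CPM, lay within the IFN-γ range. Ctsk, the collagen-cutting cathepsin of osteoclasts, averaged 14.4 ± 0.976 CPM with IFN-γ and 15.3 ± 1.98 CPM untreated. Ctsf was the lowest of the 8, at 4.75 ± 0.478 CPM with IFN-γ and 5.60 ± 0.938 CPM untreated, with an interval from -0.56 to 0.09, and was called lower under total counts at -0.4 (edgeR, adjusted p = 0.036). The 7 osteoclast markers summed to between 66.8 and 68.9 CPM with IFN-γ and between 70.7 and 73.9 CPM untreated, with Ocstamp called higher, Nfatc1 called lower and Calcr and Oscar averaging at most 0.0415 CPM. Their part in these results was not tested. Exons of a gene on the other strand overlapped 16.3% of the exonic bases of Ctsb, 15.8% of those of Ifi30 and 11.1% of those of Hexa, and since no source states whether counting used strand, these counts carry that uncertainty.

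**Figure D2:**
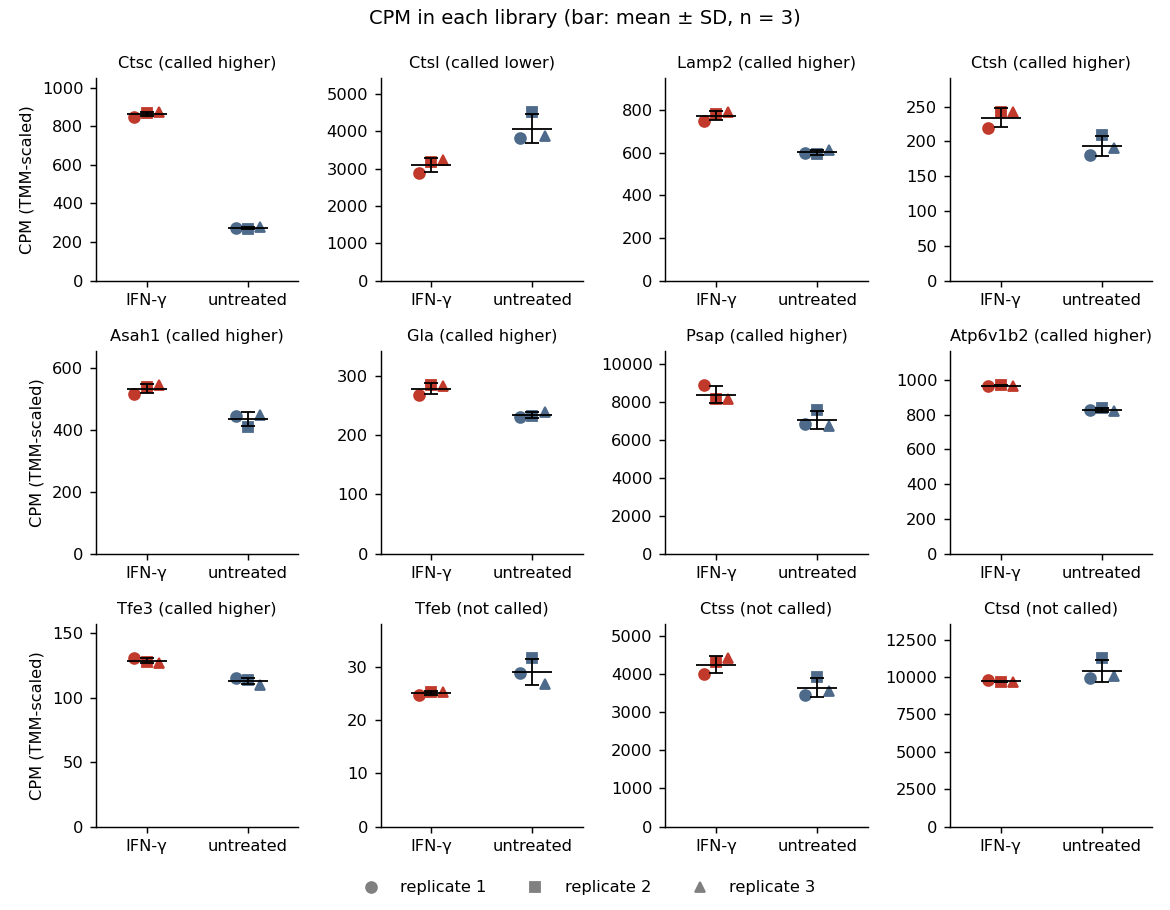
CPM in each library for 12 lysosomal genes, IFN-γ left and untreated right in every panel, from 0 upward on linear axes. Symbols are libraries and bars the mean ± SD of 3. Ctsc separates widely, from 850.6 CPM upward with IFN-γ against at most 276.0 CPM untreated, and the other called genes separate narrowly. Untreated replicate 2, the square, lies highest of its group for Ctsl, Ctsh, Psap, Atp6v1b2, Tfeb, Ctss and Ctsd.

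No other protease or reductase of the set passed the test. Ctsd, an aspartic protease and the most abundant member per length, had 9780, 9679 and 9689 CPM with IFN-γ, against 9914, 11270 and 10094 CPM untreated. Its groups did not overlap, yet its log2 fold change was -0.10 (edgeR, adjusted p = 0.312), and upper quartile and total count scaling called it lower. Of the 50-base stretches of its GENCODE M21 transcripts, 32.4% also lay in another annotated gene, mainly Gm49369. Its count may be affected, which was not tested. In the deposited coordinates, exons of no other gene overlapped those of Ctsd. Ctsa, a serine carboxypeptidase that protects other hydrolases, averaged 893 ± 67.7 CPM with IFN-γ and 783 ± 22.4 CPM untreated, at an edgeR adjusted p of 0.0725. Exons of Pltp on the other strand overlapped 13.5% of its exonic bases. Tpp1, a tripeptidyl peptidase, averaged 246 ± 19.2 CPM with IFN-γ and 218 ± 7.33 CPM untreated. Lgmn, an asparaginyl endopeptidase that matures cathepsins, averaged 1156 ± 7.02 CPM with IFN-γ and 1129 ± 94.4 CPM untreated, with an interval of the log2 fold change from -0.14 to 0.20.

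Ifi30 encodes the thiol reductase GILT, which opens disulphide bonds of antigens and is named for its induction by IFN-γ in human cells. It had 74.9, 77.7 and 77.9 CPM with IFN-γ, against 67.2, 91.9 and 69.4 CPM untreated. Untreated replicate 2 was the highest of all 6 libraries. The log2 fold change was 0.01 with a 95% interval from -0.25 to 0.27. Without that library it was 0.168 (edgeR, adjusted p = 0.0142).

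Of 6 glycosidases and lipid hydrolases, 2 were called higher, or 33.3% of a short list against 19.6% of all genes. Asah1, acid ceramidase, had 515, 538 and 544 CPM with IFN-γ, against 445, 408 and 448 CPM untreated, a log2 fold change of 0.30 ± 0.06 (SE, edgeR adjusted p = 0.0066). Exons of Frg1 on the same strand covered 16.2% of its exonic bases, with a mean of 1408 counts against 15118 for Asah1, so part of its count is uncertain. Gla, alpha-galactosidase A, had 268.5, 285.1 and 284.2 CPM with IFN-γ, against 231.5, 232.5 and 240.1 CPM untreated, a log2 fold change of 0.25 ± 0.05. Groups of both genes were apart, and both calls were lost under upper quartile and total count scaling and under no other alternative. Neu1, a sialidase, had 67.1, 68.6 and 65.4 CPM with IFN-γ, against 71.5, 83.3 and 76.1 CPM untreated. Its log2 fold change was -0.20 at an edgeR adjusted p of 0.0507, and 8 alternatives put it past the threshold on the lower side. Hexa, a beta-hexosaminidase subunit, Man2b1, an alpha-mannosidase, and Lipa, the acid lipase, had log2 fold changes of 0.07, 0.16 and -0.08, none past the threshold. Lipa was called lower under upper quartile scaling, at -0.224 (edgeR, adjusted p = 0.0345), and under total counts, at -0.249 (edgeR, adjusted p = 0.0349).

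Among soluble cofactors, Psap, the precursor of the saposins that help break down sphingolipids, had 8904, 8148 and 8148 CPM with IFN-γ, against 6845, 7609 and 6736 CPM untreated. The log2 fold change was 0.25 ± 0.08 (SE, edgeR adjusted p = 0.0341). The call was lost under 8 of 17 alternatives, among them both scalings above and the omission of any library other than untreated replicate 2. Npc2, a carrier of cholesterol inside the lysosome, averaged 2151 ± 80.8 CPM with IFN-γ and 1797 ± 198 CPM untreated. Its interval ran from 0.06 to 0.46 and its adjusted p was 0.0502 in edgeR's test. Grn, the gene of progranulin, averaged 2009 ± 65.6 CPM with IFN-γ and 1814 ± 134 CPM untreated and did not pass.

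Lamp2 was the membrane protein gene that rose. LAMP2 and LAMP1 are the main glycoproteins that line the lysosome. Lamp2 had 750.6, 781.7 and 791.1 CPM with IFN-γ, against 601.0, 592.4 and 612.3 CPM untreated, and the groups were apart. This amounted to 1.29-fold, or 0.36 ± 0.06 (SE) on the log2 scale (edgeR, adjusted p = 0.0014), and the call held under all 17 alternatives at 0.19 to 0.37. Lamp1 averaged 1917 ± 45.7 CPM with IFN-γ and 1775 ± 78.1 CPM untreated, with an interval from -0.03 to 0.26. The 2 intervals overlap, and the difference between the genes was not tested. Cd68, a macrophage glycoprotein, and Laptm5, a membrane protein of blood cells, had log2 fold changes of 0.21 and 0.19 with groups apart and adjusted p-values of 0.0599 and 0.0624 in edgeR's test. Cd63, a tetraspanin, had 927, 951 and 925 CPM with IFN-γ, against 818, 1102 and 861 CPM untreated, so untreated replicate 2 alone lay above the IFN-γ range. Of its 50-base stretches, 11.0% occur in another annotated gene, mainly Cd63-ps. Npc1, which exports cholesterol, and Mcoln1, a cation channel, had intervals from -0.48 to 0.15 and from -0.10 to 0.22.

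The transcription factors Tfe3 and Tfeb had fold changes of opposite sign, and Tfe3 alone passed the test. Tfe3 had 130.6, 128.0 and 126.9 CPM with IFN-γ, against 115.0, 114.0 and 110.2 CPM untreated, and rose by 0.185 ± 0.05 (SE) on the log2 scale (edgeR, adjusted p = 0.0211). Tfeb had 24.7, 25.3 and 25.3 CPM with IFN-γ, against 28.8, 31.7 and 26.7 CPM untreated, a log2 fold change of -0.21 with an interval from -0.39 to -0.04 and an adjusted p of 0.0613 in edgeR's test. Groups of both genes were apart. The Tfe3 call was lost under 8 of 17 alternatives, and Tfeb was called lower under 4, both scalings above included.

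In the V-ATPase, Atp6v1b2, the B subunit of the part that splits ATP, had 964, 970 and 967 CPM with IFN-γ, against 825, 838 and 819 CPM untreated. It rose by 0.22 ± 0.05 (SE) on the log2 scale (edgeR, adjusted p = 0.0131), a call lost under 6 alternatives, both scalings above among them. The other 4 subunits did not pass. The catalytic Atp6v1a and the regulatory Atp6v1h had log2 fold changes of 0.01 and 0.04. Atp6v0d1 and Atp6v0d2, alternative d subunits of the membrane part, had 0.13 and 0.02. Atp6v0d2, an osteoclast-rich form, was even across libraries at 135 ± 1.13 CPM with IFN-γ and 134 ± 1.16 CPM untreated, with an interval from -0.09 to 0.13, and total counts called it lower at -0.152.

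Per length, Ctsd stood highest of the 36 genes and Ctsf lowest in both groups. The 36 genes held 4.63% to 5.05% of all TPM with IFN-γ and 4.76% to 4.94% untreated. TPM, as deposited, scale counts by gene length. Ctsd had 10155 ± 408 TPM with IFN-γ and 11805 ± 158 TPM untreated (SD, n = 3 each). Ctsb, Psap and Ctss followed in both groups, at 6446, 6076 and 5874 TPM with IFN-γ and 6087, 5530 and 5465 TPM untreated. The levels of Psap and Ctss differed by less than the larger of their SDs in both groups. Ctsc ranked 26 with IFN-γ, at 155 ± 3.08 TPM, and 31 untreated, at 53.1 ± 4.66 TPM. Ctsl ranked 7 with IFN-γ, at 1733 ± 43.8 TPM, and 5 untreated, at 2466 ± 51.1 TPM. Tfeb and Ctsf stood at the bottom in both groups, at 6.66 and 4.64 TPM with IFN-γ and 8.36 and 5.89 TPM untreated.

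Each cathepsin was also set against the other 35 lysosomal genes within the same library, as the log2 ratio of its count to their geometric mean. This ratio does not depend on how libraries are scaled, and it is a description without a test. For Ctsc it was 0.77, 0.83 and 0.83 with IFN-γ, against -0.74, -0.87 and -0.73 untreated, a difference of 1.59, or 3.01-fold. For Ctsl it was 2.59, 2.75 and 2.77 with IFN-γ, against 3.18, 3.32 and 3.19 untreated, a difference of -0.53. For Ctsd it was 4.394, 4.404 and 4.397 with IFN-γ, against 4.602, 4.68 and 4.613 untreated, a difference of -0.23 with a pooled SD of 0.03. Groups did not overlap for these 3, nor for Ctsf and Ctsk, with differences of -0.37 and -0.22. By CPM the groups of Ctsf and Ctsk overlapped, and 50.1% of all genes tested had groups that did not. No such share was computed for the ratio. For Ctsh, Ctsz, Ctss, Ctsb and Ctsa the groups overlapped and differences ran from 0.06 to 0.16. With the median count of the other genes in place of their geometric mean, all differences moved down. These 5 became -0.02 to -0.16, Ctsc became 1.41, Ctsd -0.45 and Ctsl -0.74. That median is the count of a single gene of middle rank in each library, often Lamp2, itself called higher. The gene of that rank was not always the same in both groups. For Ctsc it was Lamp2 (24366 counts) in IFN-γ replicate 1 and Atp6v1a (20064 counts) in untreated replicate 1. Such differences therefore do not set a cathepsin against the other genes as a set, nor always against the same gene.

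**Figure D3:**
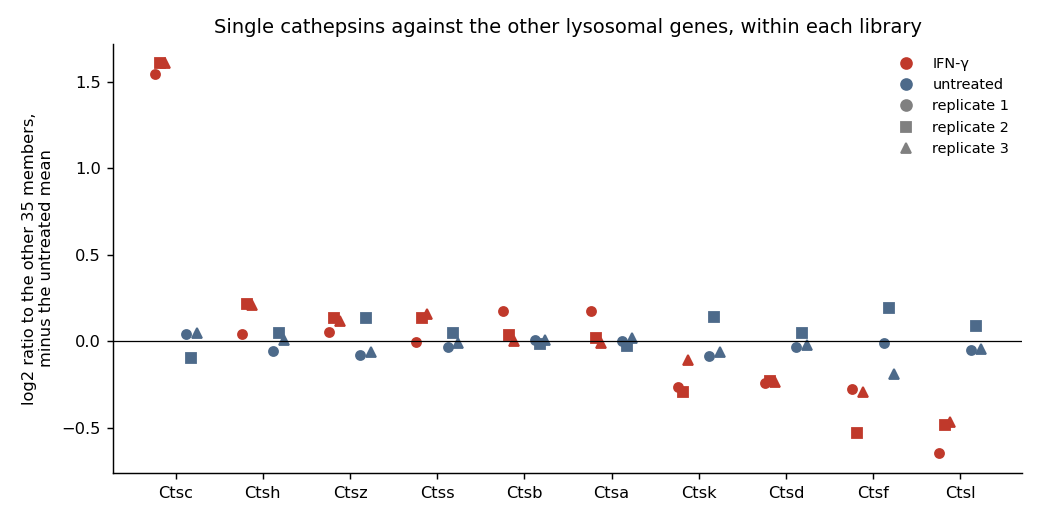
Log2 ratio of each of 10 cathepsins to the geometric mean of the other 35 lysosomal genes in the same library, less the untreated mean, for 3 IFN-γ libraries (left) and 3 untreated libraries (right) per gene. Ctsc lies about 1.59 above its untreated libraries, Ctsl 0.53 below, Ctsd, Ctsf and Ctsk lie lower without overlap, and the other 5 overlap. By CPM, groups did not overlap for 50.1% of all genes tested.

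Lists of other lysosomal genes give the setting of the 36. Of 38 other hydrolases tested, 16 rose and 3 fell, and of 27 other membrane proteins, 12 rose and 2 fell, with a median log2 fold change of 0.183 in both lists against -0.014 for all genes. Those shares, 42.1% and 44.4% higher, stand beside 19.6% of all genes, and 7.89% and 7.41% lower stand beside 16.8%. Under upper quartile scaling, where 13.9% of all genes were higher and 31.6% lower, 6 hydrolases were higher and 6 lower, and 8 membrane proteins were higher and 7 lower. Under total counts, where 12.8% of all genes were higher and 34.9% lower, 5 hydrolases were higher and 8 lower, and 7 membrane proteins were higher and 7 lower. The 3 named per list are the called genes with the largest change.

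Slc15a3, a transporter of histidine and peptides out of the lysosome, had 699.6, 584.4 and 573.9 CPM with IFN-γ, against 238.8, 227.3 and 239.8 CPM untreated, a log2 fold change of 1.40 ± 0.09 (SE). Clcn7, a chloride and proton exchanger, had 299, 276 and 265 CPM with IFN-γ, against 145, 122 and 144 CPM untreated, or 1.03 ± 0.08. Laptm4b, a relative of Laptm5, averaged 13.9 ± 0.408 CPM with IFN-γ and 5.66 ± 0.993 CPM untreated. These 3 rose under all 17 alternatives. Ctse, an aspartic protease of endosomes, averaged 1.77 ± 0.568 CPM with IFN-γ and 0.640 ± 0.271 CPM untreated, a low level, with a log2 fold change of 1.45 ± 0.34. Its call was lost at a threshold of 0.01, and it did not pass the filter of 5 CPM. Pla2g15, a lysosomal phospholipase, rose by 0.70 ± 0.08, and Sgsh, which removes sulphate from heparan sulphate, fell by 0.69 ± 0.10 on the log2 scale, both under all 17 alternatives. Exons of Card14 on the other strand overlapped 22.2% of the exonic bases of Sgsh.

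Of 20 regulators of TFEB at the lysosome, 4 rose (20%) and 3 fell (15%), shares near the 19.6% and 16.8% of all genes. Tfec, a relative of TFEB found in macrophages, averaged 51.2 ± 3.96 CPM with IFN-γ and 28.2 ± 1.63 CPM untreated, a log2 fold change of 0.86 ± 0.08. Rragd, a Rag GTPase, averaged 7.38 ± 0.526 CPM with IFN-γ and 12.9 ± 0.674 CPM untreated, and fell by 0.81 ± 0.09 on the log2 scale. Rptor, a subunit of the kinase complex mTORC1, fell by 0.46 ± 0.12, a call lost at a threshold of 0.01 and without untreated replicate 3, IFN-γ replicate 2 or IFN-γ replicate 3.

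Of 14 other V-ATPase subunits tested, 2 rose (14.3%) and 1 fell (7.14%), against 19.6% and 16.8% of all genes. Atp6v0c, which forms the rotor ring of the pump, had 575, 546 and 537 CPM with IFN-γ, against 383, 397 and 380 CPM untreated, a log2 fold change of 0.52 ± 0.06 that held under all 17 alternatives. Of its 50-base stretches, 10.8% occurred in another annotated gene, mainly Atp6v0c-ps2. Atp6v0a2 rose by 0.31 ± 0.08, a call lost under 5 alternatives, and Atp6v1c1 had -0.15 ± 0.05, a call lost under 9, with 26.2% of its exonic bases overlapped on the other strand. Of 15 genes of delivery to the lysosome, 3 rose (20%) and 1 fell (6.67%), against the same shares of all genes. M6pr, a receptor for the mannose-6-phosphate tag, and Gnptab, a subunit of the enzyme that makes it, rose by 0.38 ± 0.06 and 0.42 ± 0.10, and the adaptor gene Gga2 fell by 0.34 ± 0.06 on the log2 scale. Gnptab lost its call at a threshold of 0.01, under total counts and without IFN-γ replicate 1. Of 8 cystatins, the inhibitors of cysteine cathepsins, 4 were tested and Cst7, which encodes cystatin F, rose. It averaged 5.50 ± 0.551 CPM with IFN-γ and 2.47 ± 0.440 CPM untreated, a log2 fold change of 1.15 ± 0.14 (edgeR, adjusted p = 0.000436).

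**Figure D4:**
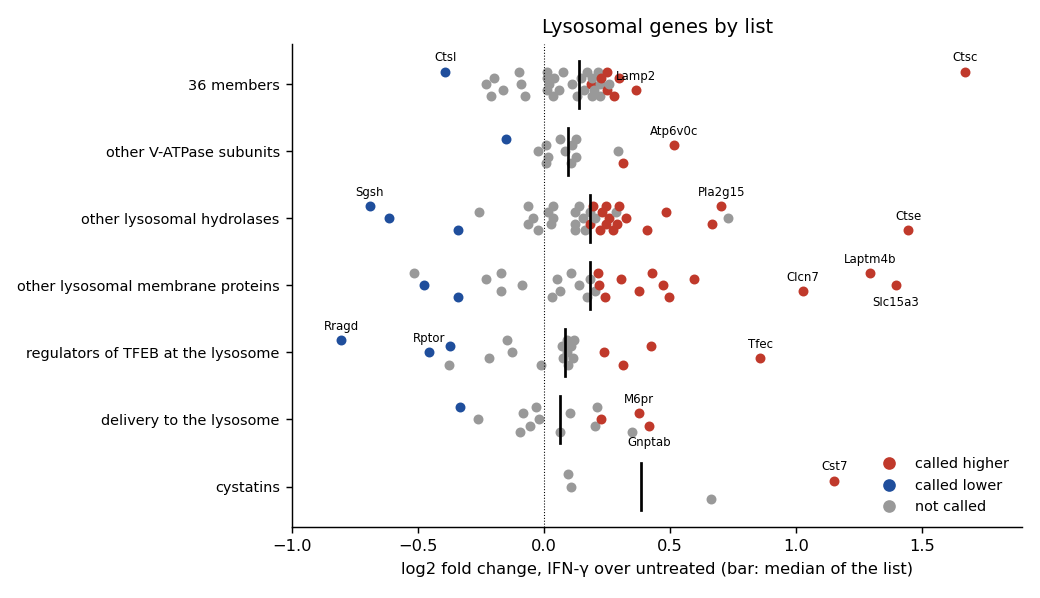
Log2 fold change, IFN-γ over untreated, of every tested gene of the 36 and of 6 lists of other lysosomal genes, a point per gene and a bar at each list's median. The 36 genes have 1 point past 1, Ctsc, while the other hydrolases and membrane proteins have 1 and 3 called points past it. Under upper quartile and total count scaling the median of all genes moves by -0.147 and -0.17.

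The number of the 36 genes called differed between settings. Under RLE scaling 8 were higher and 2 lower, where 19.5% and 16.9% of all genes were. Under limma-voom 10 were higher and 1 lower, where 19.7% and 16.6% of all genes were. DESeq2 called 13 higher and 1 lower, where it called 16.6% of all genes higher and 12.7% lower. With each library's trend on exon length removed, where 25.8% of all genes were higher and 20.2% lower, 18 of the 36 were higher and 2 lower, close to the 20 and 2 without untreated replicate 2, where Ctsb, Ctss, Ctsz, Ctsa, Ifi30, Hexa, Grn, Npc2, Lamp1, Cd63, Cd68 and Atp6v0d1 joined the 8. Without untreated replicate 3, IFN-γ replicate 2 or IFN-γ replicate 3, 4 were higher, where 15.5%, 15.2% and 15.6% of all genes were. Ctsc, Lamp2 and Ctsl were called in the same direction under each of the 17 alternatives.

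**Figure D5:**
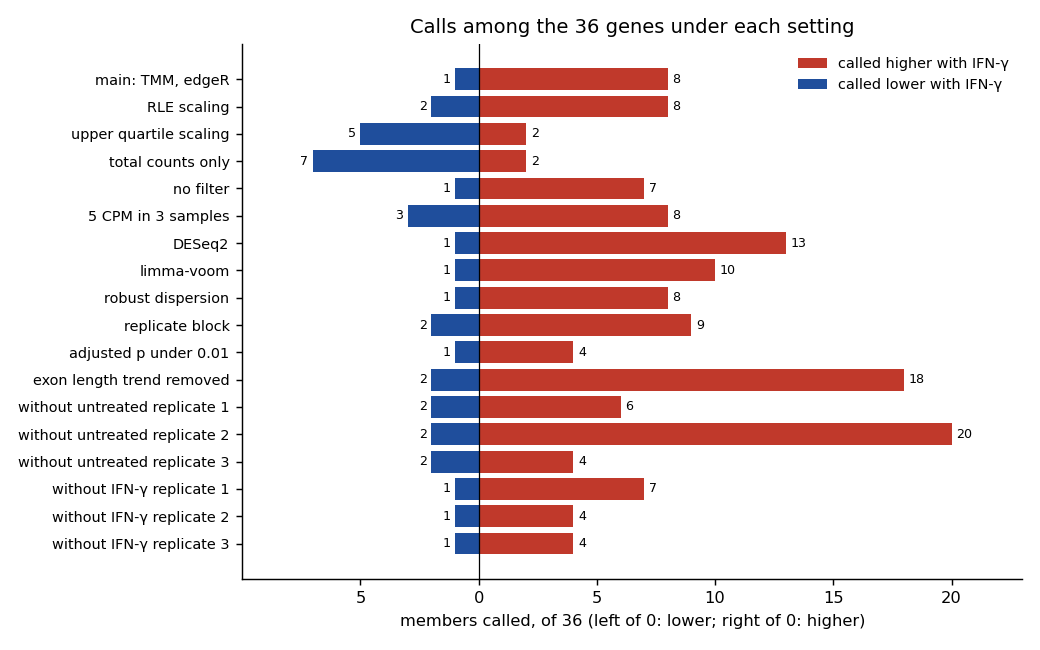
Number of the 36 lysosomal genes called higher (right of 0) and lower (left of 0) with IFN-γ under the main analysis and each of 17 alternatives. The count runs from 2 to 20 higher and from 1 to 7 lower, and is mostly lower only under upper quartile and total count scaling. Over all genes, the share called ran from 11.7% to 25.8% higher and from 9.44% to 34.9% lower.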

How the data were processed

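RNA was sequenced from 6 libraries of mouse macrophages, prepared with a stranded mRNA kit per the labels' protocols. HISAT2 and mm10 are named in the submitters' processing notes; no source used here gives the counting tool, its use of strand or its handling of multi-mapped reads. Whole, unnormalized counts per gene were deposited by the authors. The TPM and FPKM deposited by the authors were recomputed from counts and lengths to within 2.2e-13; TPM were used for levels and FPKM not used. Starts and ends matched those in RefSeq GRCm38.p6 for 1.7% of shared symbols, so the tables' build is unnamed.

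The whole count table was fitted in R 4.3.3 (edgeR 4.0.16; limma 3.58.1 for voom): filterByExpr (minimum count 10, total 15), TMM, glmQLFit and glmQLFTest, two-sided, Benjamini-Hochberg adjusted over 12968 genes, threshold 0.05. The SE is the log2 fold change over the square root of F, and 95% intervals use the fit's degrees of freedom. No replicate pair agreed within counting noise, with chi-square values of 2.05 to 81.12 per degree of freedom. Ratios of cathepsins used a pseudocount of 0.5. Other fits scaled libraries by RLE, by upper quartile or by total counts, dropped the filter or asked for 5 CPM in 3 samples, and used limma-voom, DESeq2 1.42.0 or robust dispersion; further ones took a replicate block, a threshold of 0.01, removal of each library's length trend (lowess, span 0.5) and each library left out. The fit was tested on simulated data. The 36 genes and the lists were chosen with earlier results of these data known. All 36 genes are accounted for; a marker gene and a promoter motif that were also examined are not reported here. From each list of other genes, up to 3 called genes with the largest change and at least 1 CPM are named; Irf1 checks the treatment, and marker genes named beside it were chosen after their values were seen. Shared 50-base stretches come from GENCODE M21 transcripts, and are shares of sequence, not of counts. Figures used Python 3.11.15 and matplotlib 3.10.9.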

Additional observations from a re-analysis of the deposited data

How the results depend on the processing

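Ctsc, Lamp2 and Ctsl kept direction and call under all 17 alternatives, and each of the other 6 called genes of the 36 lost its call under at least 2. Over all genes, 3037 were called at 0.01 (1242 lower), 4097 were lower under upper quartile scaling, and 1666 were higher and 4520 lower under total counts. Of the 36 genes, 2 were higher and 5 lower under upper quartile scaling, 2 and 7 under total counts, 13 higher under DESeq2, 18 higher and 2 lower with the length trend removed, 4 higher at 0.01, 2 lower under RLE and 3 lower with the filter of 5 CPM. The replicate block gave 2 lower among the 36 and 5 higher for delivery, and no V-ATPase subunit of the wider list lower. Of all genes, 21% were higher and 17.9% lower with that block, 13.8% higher at 0.01, and 16.9% lower under RLE. With the filter of 5 CPM, 20.1% of all genes were lower. Same-numbered libraries had correlations of 0.306, 0.144 and -0.07, so the numbers were not taken as pairs, and not every library correlated best with its own number.

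The main analysis tested 14 other V-ATPase subunits, 38 hydrolases, 27 membrane proteins, 20 regulators, 15 delivery genes and 4 cystatins. For these wider lists, upper quartile scaling gave 1 V-ATPase subunit, 6 hydrolases and 2 regulators higher. It gave 6 hydrolases, 7 membrane proteins and 5 delivery genes lower. Of all genes, 13.9% were then higher and 31.6% lower. For V-ATPase subunits, hydrolases, membrane proteins, regulators and delivery genes, total counts gave 1, 5, 7, 1 and 1 higher. In the same order it gave 2, 8, 7, 5 and 4 lower, where 12.8% of all genes were higher and 34.9% lower. At 0.01 there were 1, 8 and 1 higher for V-ATPase subunits, hydrolases and delivery, where 13.8% of all genes were. With the length trend removed there were 7, 8 and 3 higher for V-ATPase subunits, regulators and cystatins. There were 0, 5 and 5 lower for V-ATPase subunits, membrane proteins and regulators. Of all genes, 25.8% were then higher and 20.2% lower. No V-ATPase subunit was lower (0) without a filter or at 0.01, where 9.44% and 9.58% of all genes were lower. No cystatin was higher (0) with the filter of 5 CPM, which Cst7 did not pass and where 20.1% of all genes were higher.

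Genes near no change turned sign. Under upper quartile scaling the log2 fold change was -0.114 for Lgmn, -0.136 for Ifi30, -0.074 for Hexa, -0.001 for Grn, -0.037 for Lamp1, -0.137 for Cd63, -0.088 for Mcoln1, -0.018 for Atp6v0d1, -0.13 for Atp6v0d2, -0.136 for Atp6v1a and -0.107 for Atp6v1h. Under total counts it was -0.134 for Lgmn, -0.154 for Ifi30, -0.094 for Hexa, -0.014 for Man2b1, -0.021 for Grn, -0.058 for Lamp1, -0.155 for Cd63, -0.109 for Mcoln1, -0.038 for Atp6v0d1, -0.152 for Atp6v0d2, -0.16 for Atp6v1a and -0.128 for Atp6v1h. With the filter of 5 CPM it was -0.015 for Ifi30, -0.016 for Cd63, -0.011 for Atp6v0d2 and -0.018 for Atp6v1a. The scalings differ from TMM by the same shift for every gene, as constructed; otherwise the cause was not tested.

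Leaving out 1 library gave 15.2% to 24% of all genes higher and 11% to 21.1% lower. Among the 36 genes it gave 4 to 20 higher and 1 to 2 lower. It gave 1 to 6 V-ATPase subunits higher and 0 to 1 lower, 9 to 21 hydrolases higher, 2 to 6 membrane proteins lower, 3 to 9 regulators higher, 1 to 3 delivery genes higher and 1 to 3 lower, and 1 to 3 cystatins higher. Log2 fold changes then ran from -0.152 to 0.018 for Ctsk, -0.009 to 0.106 for Lgmn, -0.069 to 0.168 for Ifi30, -0.071 to 0.154 for Cd63 and -0.038 to 0.039 for Atp6v1a. Against the median count of the other genes, which is that of a single gene in each library, differences were 1.413 for Ctsc, -0.018 for Ctsh and -0.121 for Ctsz. They were -0.125 for Ctss, -0.151 for Ctsb, -0.161 for Ctsa, -0.383 for Ctsk, -0.448 for Ctsd and -0.738 for Ctsl. Against the other genes without cathepsins, Ctsd was at -0.2.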
